A study of Mus musculus with 6 samples.

Results

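The genes described here are the inhibitors of cyclin-dependent kinases in mouse heart, chosen by name as Cdkn1a, Cdkn1b, Cdkn1c, Cdkn2a, Cdkn2b, Cdkn2c and Cdkn2d. Of these 7 genes 6 have a row among the 20893 genes of the deposited table, and Cdkn2a is not analysed here. RNA of 3 heart libraries with a germline knockout of Rbpms, labelled R1KO, was compared with RNA of 3 wildtype libraries, all on the C57BL6/J background. Controls were littermates, and the stage is not settled here, since the title has embryonic hearts and the design text neonatal ones. The sources used here do not give an age, the deleted part of Rbpms or which animals stand behind a library. P-values therefore cover the spread between these libraries alone, part of which may be technical. Each group holds male and female libraries, as read from sex-linked genes, so neither comes from a single animal. The comparison asks how the inhibitor genes differ in hearts without Rbpms, which encodes an RNA-binding protein.

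Cyclin-dependent kinases drive a cell through its division cycle when a cyclin binds them, and the inhibitors hold them back. The CIP/KIP family, p21 from Cdkn1a, p27 from Cdkn1b and p57 from Cdkn1c, binds complexes of cyclin and kinase, above all those with the kinase encoded by Cdk2. The INK4 family, p16 from Cdkn2a, p15 from Cdkn2b, p18 from Cdkn2c and p19 from Cdkn2d, binds the kinases encoded by Cdk4 and Cdk6 and keeps D-type cyclins from activating them. With these kinases held back, retinoblastoma proteins keep E2F factors inactive and genes of DNA replication stay low. Cardiac muscle cells of mice stop dividing soon after birth, and inhibitors of this kind are known to take part in that exit.

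Promoter sequence is shown for Cdkn1a and Cdkn2c, the only members with knockout and wildtype values that did not overlap. Such values were also seen in 22% of all tested genes, 11% higher and 10.9% lower. The sequence is from RefSeq on build GRCm38.p6, which is not the build mm39 of the deposited table. Each sequence is the 250 bases before a transcript start, and Cdkn1a has an upstream and a downstream start in that table. The table holds windows for 5 of the 6 measured members and lacks one for Cdkn1c. In the upstream window of Cdkn1a, chr17:29090729-29090978 on the plus strand, capitals mark a match to the p53 response element, 20 bases made of 2 adjacent units of 10, with 1 mismatch to the consensus.
Cdkn1a, upstream start: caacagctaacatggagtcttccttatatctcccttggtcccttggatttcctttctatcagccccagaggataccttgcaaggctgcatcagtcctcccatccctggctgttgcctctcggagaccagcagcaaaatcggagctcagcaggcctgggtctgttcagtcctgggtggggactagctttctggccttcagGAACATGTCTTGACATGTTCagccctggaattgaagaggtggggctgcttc
In the downstream window, chr17:29093519-29093768 on the plus strand, capitals mark 2 GC boxes, the letters GGGCGG that Sp1 factors recognise.
Cdkn1a, downstream start: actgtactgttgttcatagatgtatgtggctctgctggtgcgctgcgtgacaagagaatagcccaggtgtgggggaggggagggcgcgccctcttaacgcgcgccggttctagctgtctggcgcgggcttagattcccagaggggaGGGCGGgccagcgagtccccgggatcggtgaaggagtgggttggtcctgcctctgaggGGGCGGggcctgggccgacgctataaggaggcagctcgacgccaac
In the upstream window of Cdkn2c, chr4:109666757-109667006 on the minus strand, capitals mark an E2F core, found 25 bases before the start.
Cdkn2c, upstream start: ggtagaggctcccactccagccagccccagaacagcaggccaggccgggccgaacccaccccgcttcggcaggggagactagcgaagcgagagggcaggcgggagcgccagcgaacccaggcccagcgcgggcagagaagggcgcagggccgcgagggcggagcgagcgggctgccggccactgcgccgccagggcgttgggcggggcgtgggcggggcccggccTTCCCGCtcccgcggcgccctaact

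A p53 response element with at most 1 mismatch was present in 25 of 32851 RefSeq windows of this length, 0.0761%, and among the members it was found in the upstream window of Cdkn1a. It begins 51 bases before that start. An E2F core, searched on both strands as any of the words TTCCCGC, the variant TTGGCGC, the variant TTCGCGC and the variant TTGCCGC, was present in 7.89% of the windows, and a GC box on both strands in 32.7%. The Cdkn2c window shown also holds 3 GC boxes, left in lower case. The downstream window of Cdkn2c, chr4:109665373-109665622, holds no E2F core and no GC box. GC boxes were also found in the windows of Cdkn1b (1) and Cdkn2d (3). These matches describe letters, and the gene-level values do not tell which start was used.

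Rbpms itself was checked first. It held 375, 340 and 507 in knockout replicates 1, 2 and 3, against 1182, 1176 and 1317 in wildtype replicates 1, 2 and 3. Every knockout library was far below every wildtype library, by -1.61 on the log2 scale (limma, adjusted p = 0.0124), though transcripts were still counted. The paralogue Rbpms2 did not pass the test, at -0.08 (adjusted p = 0.627). The values here and below are reads scaled by library and rounded, as deposited, and the read totals recovered from them ran from 4163230 to 5805674 per library. Knockout replicate 3 and wildtype replicate 1 were female and the other 4 libraries male, as read from Xist and Y-linked genes. Knockout replicate 3 stood apart in its genes of G2 and M phase and of epicardium, and results that rest on it are given with and without it. All 16 cardiomyocyte markers were tested, while of 9 thymus markers 2 were in the table, with summed values of 15 to 26 per library. Of 14974 tested genes 141, which is 0.942%, had an adjusted p under 0.05 (limma on log2(value + 1) with Benjamini-Hochberg adjustment), 76 (0.508%) higher and 65 (0.434%) lower in knockout hearts. The share called was 0.0401% without knockout replicate 1, 3.41% without replicate 2 and 4.86% without replicate 3, 0.02% without wildtype replicate 1 and 0% without wildtype replicates 2 and 3. It was 1.49% with a term for sex, 0.154% with the replicate number as a block and 0.434% by voom on the recovered reads.

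Cdkn1a, which encodes the p53-responsive inhibitor p21, rose in knockout hearts and was the member called of the 5 tested. It held 677, 571 and 807 in knockout replicates 1, 2 and 3, against 270, 322 and 293 in wildtype replicates 1, 2 and 3. The lowest knockout library was well above the highest wildtype library, and the highest of all was female knockout replicate 3. The means were 685 ± 118 in knockout and 295 ± 26.1 in wildtype hearts (SD, n = 3 each). Knockout and wildtype differed on the log2 scale by 1.20 (standard error 0.13; limma, adjusted p = 0.0124), a 2.30-fold rise with a 95% interval of 1.89 to 2.80. By p it ranked 8 of the 14974 tested genes and by size of rise 81. In whole-heart RNA a change in the number of cells that hold a transcript and a change in its amount per cell cannot be told apart. Cdkn1a spans bases 29309950 to 29319701 of chromosome 17 in mm39, plus strand.

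**Figure D1:**
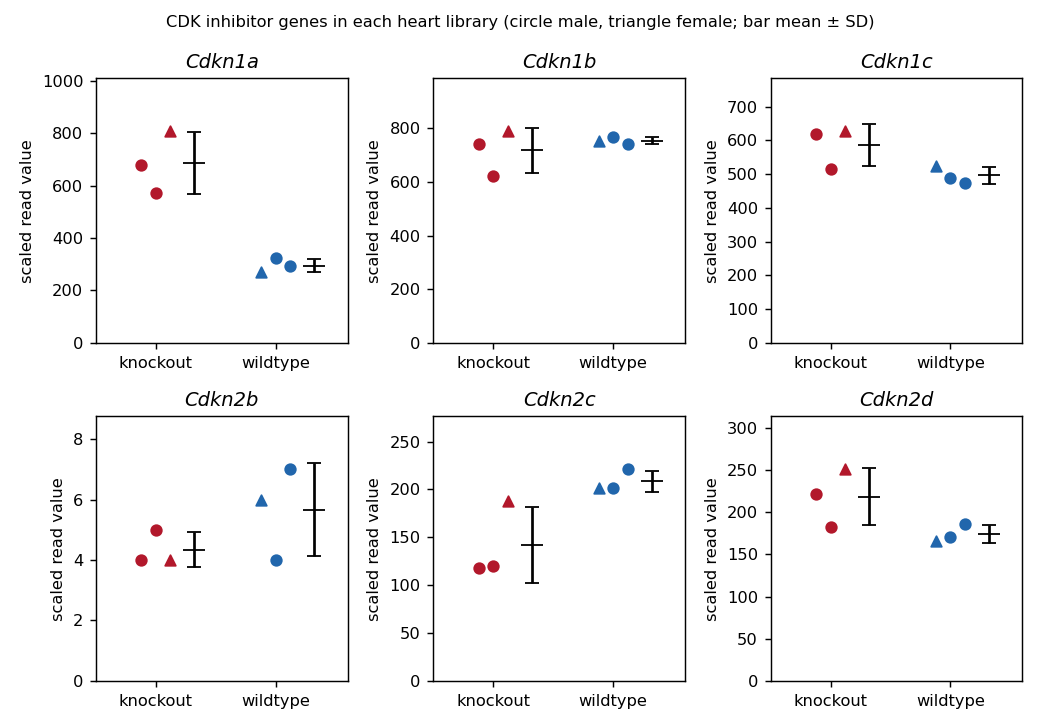
Scaled read values (vertical axes, each from 0) of the 6 measured inhibitor genes in knockout and wildtype libraries, a point per library and a bar for the mean ± SD of 3. Cdkn1a runs from 571 to 807 in knockout and from 270 to 322 in wildtype libraries, and Cdkn2c from 118 to 188 in knockout and from 202 to 221 in wildtype libraries, while the other 4 genes overlap.

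The knockout libraries varied more than counting alone gives. Between 248 and 947 recovered reads stood behind each Cdkn1a value, for which counting would give a coefficient of variation of 3.68% in knockout and 5.96% in wildtype hearts. The observed coefficients were 17.3% in knockout and 8.83% in wildtype hearts. In male libraries only, 2 knockout against 2 wildtype, the log2 fold change of Cdkn1a was 1.01 (limma, adjusted p = 0.000338). The female libraries held 807 in knockout and 270 in wildtype, a log2 difference of 1.58 with 1 library each and no replicate, and the difference between the sexes was not tested. The log2 fold change was 1.08 without knockout replicate 3 (limma, adjusted p = 0.000109) and 1.33 without knockout replicate 2 (0.00211). The Cdkn1a call was lost without knockout replicate 1 (limma, adjusted p = 0.0671) and without wildtype replicates 1, 2 and 3 (0.103, 0.0967 and 0.143), with fold changes between 1.14 and 1.27. Without intensity trend and robust moderation the adjusted p was 0.0713 at the same fold change.

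**Figure D2:**
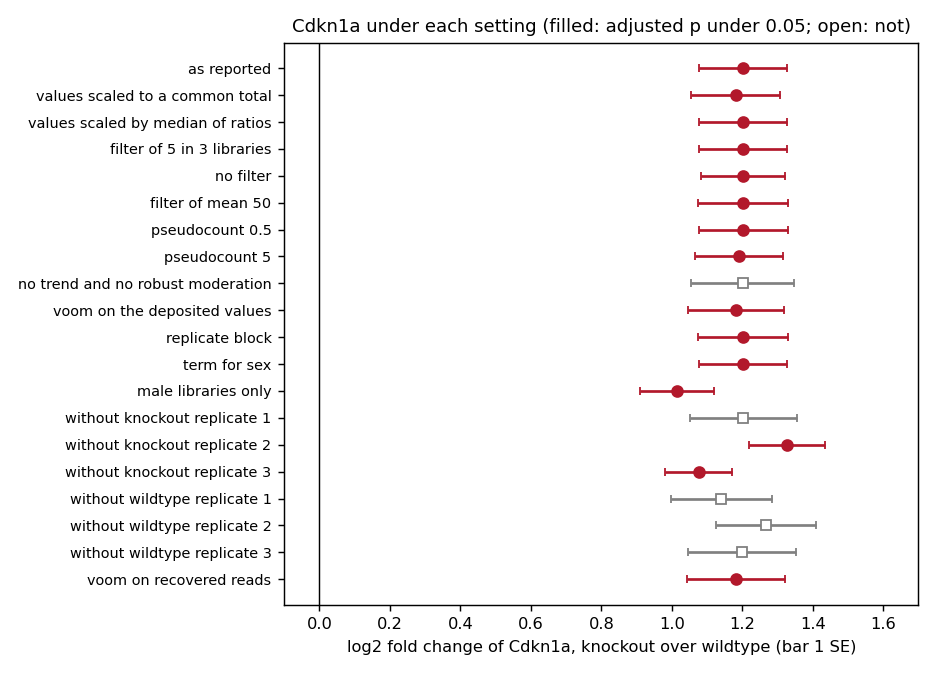
Log2 fold change of Cdkn1a, knockout over wildtype, on the horizontal axis with a bar of 1 standard error, for the reported fit and 19 alternatives down the page. The estimates run from 1.01 to 1.33, filled circles have an adjusted p under 0.05 and the 5 open squares do not.

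1700023B13Rik, a gene of uncertain status annotated on the opposite strand inside Cdkn1a, held 23, 18 and 29 in knockout replicates 1, 2 and 3, against 6, 9 and 11 in wildtype replicates 1, 2 and 3. On the log2 scale knockout minus wildtype was 1.34, standard error 0.33 (limma, adjusted p = 0.0913). The library kit keeps strand, but no source used here states the strand setting of the counting, so these reads cannot be told apart from reads of Cdkn1a. They are few beside those on Cdkn1a.

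Cdkn1b, which encodes p27, a brake on the kinase of Cdk2 in resting cells, was not called. It held 740, 623 and 788 in knockout replicates 1, 2 and 3, against 753, 766 and 739 in wildtype replicates 1, 2 and 3. The wildtype libraries lay inside the knockout range, with coefficients of variation of 11.8% in knockout and 1.79% in wildtype hearts. The fitted log2 difference was -0.08, standard error 0.09 (limma, adjusted p = 0.712), and the 95% interval ran from 0.827 to 1.09 times the wildtype level. Without knockout replicate 2, its lowest library, the log2 fold change was 0.02 (limma, adjusted p = 0.909).

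Cdkn1c, which encodes p57 and is expressed from the maternal chromosome, was not called. It held 619, 516 and 627 in knockout replicates 1, 2 and 3, against 524, 490 and 475 in wildtype replicates 1, 2 and 3. Knockout replicates 1 and 3 were above all wildtype libraries, and knockout replicate 2 was under wildtype replicate 1. Knockout and wildtype differed on the log2 scale by 0.24 (standard error 0.09; limma, adjusted p = 0.222, unadjusted 0.0241), with a 95% interval of 1.03 to 1.35 times the wildtype level. Without knockout replicate 2 the log2 fold change was 0.33 (limma, adjusted p = 0.0568). The noncoding gene Gm44732 on the opposite strand inside Cdkn1c held 145, 106 and 147 in knockout replicates 1, 2 and 3, against 108, 92 and 88 in wildtype replicates 1, 2 and 3. Its log2 fold change was 0.45 (limma, adjusted p = 0.212), and its reads and those of Cdkn1c cannot be told apart without the strand setting.

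Among the INK4 genes Cdkn2c, which encodes p18, had lower values in every knockout library but was not called. It held 118, 120 and 188 in knockout replicates 1, 2 and 3, against 202, 202 and 221 in wildtype replicates 1, 2 and 3. The male knockout libraries lay far under the wildtype range and the female one just under it. On the log2 scale knockout minus wildtype was -0.58, standard error 0.17 (limma, adjusted p = 0.149, unadjusted 0.00854), with a 95% interval of 0.508 to 0.877 times the wildtype level. Values of the groups did not overlap in 22% of all tested genes, 11% higher and 10.9% lower. Cdkn2c was called lower without knockout replicate 3, with a log2 difference of -0.80 (limma, adjusted p = 0.00144), where 4.86% of tested genes were called, 2.26% higher and 2.6% lower. In male libraries only, which also leave out knockout replicate 3, it was called lower at -0.82 (limma, adjusted p = 0.00905). There 1.71% were called, 0.835% higher and 0.875% lower. These 2 fits share that removal and are not separate support, and in the other 17 alternatives Cdkn2c was not called. In the female libraries its log2 difference was -0.10, with 1 library each. With a term for sex it was not called (adjusted p = 0.0958).

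Cdkn2d, which encodes p19 of the INK4 family, was not called. It held 222, 183 and 251 in knockout replicates 1, 2 and 3, against 166, 171 and 186 in wildtype replicates 1, 2 and 3. Knockout replicate 2 fell inside the wildtype range and the other knockout libraries above it. The fitted log2 difference was 0.31, standard error 0.13 (limma, adjusted p = 0.255, unadjusted 0.034), with a 95% interval of 1.02 to 1.52 times the wildtype level. The log2 difference was 0.18 in male and 0.59 in female libraries.

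Cdkn2b, which encodes the TGF beta-responsive inhibitor p15, was near the limit of detection. It held 4, 5 and 4 in knockout replicates 1, 2 and 3, against 6, 4 and 7 in wildtype replicates 1, 2 and 3, from 4 to 6 recovered reads. It did not reach a value of at least 10 in 3 libraries and was not tested, and a difference was not detectable at this depth. An unadjusted p under 0.05 was reached by 4 of the 5 tested members, 3 higher and 1 lower, and by 16.4% of all tested genes, 8.54% higher and 7.86% lower. The median log2 fold change was 0.24 over the 5 tested members and 0.00 over all tested genes. In mm39 the other measured members lie on chromosome 6 from 134897364 to 134902476 (Cdkn1b, plus strand), chromosome 7 from 143012076 to 143014787 (Cdkn1c, minus strand), chromosome 4 from 89224536 to 89229276 (Cdkn2b, minus strand) and from 109518073 to 109524386 (Cdkn2c, minus strand), and chromosome 9 from 21199706 to 21202703 (Cdkn2d, minus strand).

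**Figure D3:**
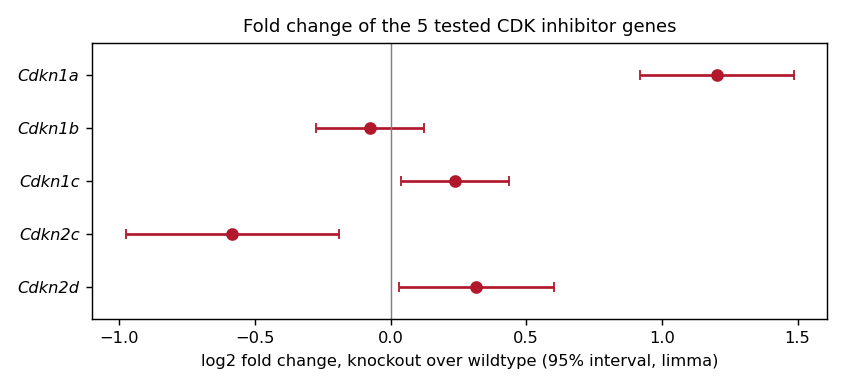
Log2 fold change, knockout over wildtype (horizontal axis), of the 5 tested inhibitor genes with the 95% interval of the limma fit. Cdkn1a lies at 1.20 and Cdkn2c at -0.58, and the interval of Cdkn1b spans 0.

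Ratios within a library do not depend on how libraries are scaled, so Cdkn1a was also set against each of the other 4 tested members. The log2 ratio of Cdkn1a to Cdkn1b was -0.07 ± 0.09 in knockout and -1.35 ± 0.12 in wildtype hearts (SD, n = 3 each). The log2 ratio to Cdkn1c was 0.21 ± 0.13 in knockout and -0.75 ± 0.18 in wildtype hearts. The ratio to Cdkn2d was 1.64 ± 0.04 in knockout and 0.75 ± 0.14 in wildtype hearts, the tightest of the 4 among knockout libraries. The ratio to Cdkn2c was 2.28 ± 0.21 in knockout and 0.50 ± 0.15 in wildtype hearts. The differences of knockout minus wildtype were 1.28, 0.96, 0.89 and 1.79 against Cdkn1b, Cdkn1c, Cdkn2d and Cdkn2c. Knockout and wildtype libraries did not overlap in any of these 4 ratios. All 4 share Cdkn1a, whose own values did not overlap, so they are not separate results. A two-sided exact permutation test of 3 against 3 cannot go below 0.1, and p was 0.1 for each before and after adjustment over the 4.

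Levels of different genes were compared per kilobase of exon, counted over all annotated exons of a gene, whether used in these hearts or not. The order of genes and their shares depend on that length. Cdkn1c was the most abundant member at 288 ± 30.4 in knockout and 243 ± 12.3 in wildtype hearts, in scaled reads per kilobase (SD, n = 3 each). Cdkn1a stood at 193 ± 33.3 in knockout and 83.0 ± 7.33 in wildtype hearts. Cdkn1b stood at 158 ± 18.6 in knockout and 165 ± 2.97 in wildtype hearts. Cdkn2d followed at 139 ± 21.7 in knockout and 111 ± 6.61 in wildtype hearts. Cdkn2c stood at 52.9 ± 14.8 in knockout and 77.6 ± 4.08 in wildtype hearts, and Cdkn2b at 3.12 ± 0.42 in knockout and 4.08 ± 1.10 in wildtype hearts. In wildtype hearts the order was thus Cdkn1c, Cdkn1b, Cdkn2d, Cdkn1a, Cdkn2c and Cdkn2b, and the mean ± SD of Cdkn1a and of Cdkn2c overlapped. In knockout hearts the order was Cdkn1c, Cdkn1a, Cdkn1b, Cdkn2d, Cdkn2c and Cdkn2b, and the mean ± SD of Cdkn1a overlapped those of Cdkn1b and Cdkn2d.

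Cdkn1a made up 22.6%, 22.5% and 24.2% of the summed inhibitor level per kilobase in knockout replicates 1, 2 and 3, against 11.1%, 13.2% and 12.1% in wildtype replicates 1, 2 and 3. The share of Cdkn2c was 6.30 ± 1.12% in knockout and 11.3 ± 0.61% in wildtype hearts, and that of Cdkn1c was 34.7 ± 1.73% in knockout and 35.6 ± 1.82% in wildtype hearts. The summed level was 845, 715 and 940 in knockout replicates 1, 2 and 3, against 683, 686 and 683 in wildtype replicates 1, 2 and 3. Without Cdkn1a the sums were 654, 554 and 713 in knockout, against 607, 595 and 601 in wildtype libraries, and then overlapped. These shares are descriptions and were not tested.

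**Figure D4:**
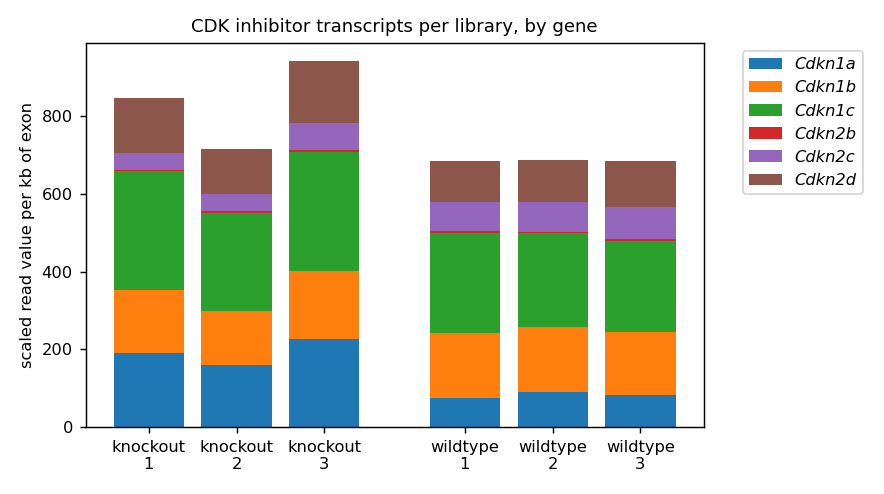
Scaled reads per kilobase of exon (vertical axis, from 0) summed over the 6 measured inhibitor genes in each library, stacked by gene. The sums run from 715 to 940 in knockout and from 683 to 686 in wildtype libraries, and the Cdkn1a block is larger in each knockout library.

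The kinases and cyclins that these inhibitors bind gave no call at an adjusted p under 0.05. Of 9 tested G1 and S phase cyclins and kinases limma called 0 and voom 0, while 0 were higher and 3 lower before adjustment (p under 0.05). Cdk2, the kinase that p21 and p27 bind, had the smallest p and held 502, 555 and 483 in knockout replicates 1, 2 and 3, against 636, 619 and 625 in wildtype replicates 1, 2 and 3. Knockout and wildtype differed on the log2 scale by -0.29 (standard error 0.07; limma, adjusted p = 0.0925). Cdk4 and Cdk6, the kinases that INK4 proteins bind, had log2 fold changes of -0.20 and 0.03, and the D-type cyclins Ccnd1, Ccnd2 and Ccnd3 of -0.07, 0.04 and 0.07. The E-type cyclins Ccne1 and Ccne2 had log2 fold changes of -0.64 and -0.52. In the list of 9, limma called 1 lower with knockout replicate 2 or 3 left out or in males alone. In those settings 244, 389 and 131 of all 14974 tested genes were called lower. Before adjustment 8.54% of all tested genes were higher and 7.86% lower, shares to be set beside the list counts here and below. The cyclin and kinase genes given here, other than Cdk2, were named for their role after their values were seen.

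Downstream of the inhibitors, E2F factors and their targets gave 2 calls, both lower, which voom on the recovered reads did not give. Of 13 tested genes of the retinoblastoma and E2F families 1 fell, E2f8, a repressing E2F factor. It held 60, 99 and 97 in knockout replicates 1, 2 and 3, against 183, 172 and 168 in wildtype replicates 1, 2 and 3, a log2 difference of -1.06 (limma, adjusted p = 0.0472). E2f8 lost its call without knockout replicate 1 (limma, adjusted p = 0.0873) and without wildtype replicates 1, 2 and 3 (0.238, 0.145 and 0.223). It was also lost without trend and robust moderation (0.119), with the replicate block (0.119) and with a filter of mean 50 (0.0536). In that family 3 genes fell with knockout replicate 2 left out and 4 with knockout replicate 3 left out. Of all 14974 tested genes 244 and 389 were called lower in those settings. Of 22 tested E2F targets of the G1/S transition 1 fell and 0 rose. All 22 had a log2 fold change below 0, while 49.8% of all tested genes were above 0. Before adjustment 15 of the 22 were lower (p under 0.05), as were 7.86% of all tested genes. The median log2 fold change of the 22 targets was -0.50. That median stood at -0.65, -0.21 and -0.72 in knockout replicates 1, 2 and 3 relative to the wildtype mean, and at 0.05, -0.14 and 0.07 in wildtype replicates 1, 2 and 3. The called target was Pola1, which encodes the polymerase that starts DNA synthesis with primase, at -0.86 (adjusted p = 0.0472). Its call was lost without knockout replicate 1 (0.141) and each wildtype replicate (0.261, 0.129 and 0.211). It was also lost without trend and robust moderation (0.078), with the replicate block (0.141) and with a filter of mean 50 (0.0536). Voom on the deposited values did not give it either (adjusted p = 0.0577). Of these targets 12 fell without knockout replicate 2 and 3 without knockout replicate 3, where 244 and 389 of all tested genes fell. Pcna, the replication clamp to which p21 also binds, held 167, 207 and 207 in knockout replicates 1, 2 and 3, against 248, 215 and 271 in wildtype replicates 1, 2 and 3, a log2 fold change of -0.34, and was named for its role after its values were seen.

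Values of Cdkn2c and of 2 cycle lists were set side by side by library. The median of the 20 tested G2 and M phase genes was -0.91, -0.62 and 0.39 in knockout replicates 1, 2 and 3 relative to the wildtype mean, and 0.14, -0.27 and 0.15 in wildtype replicates 1, 2 and 3. Knockout replicate 3, with the highest Cdkn2c value of the knockout libraries, was thus the library with the highest mitotic median and the lowest E2F target median. Whether these genes have a part in the value of Cdkn2c was not tested. Of the 20, limma called 0 and voom 0, and 0 were higher and 2 lower before adjustment (p under 0.05). Without knockout replicate 3, 12 of them fell, where 2.6% of all tested genes were called lower. In males alone 7 fell, where 0.875% of all tested genes were called lower. Both settings leave out knockout replicate 3, which was singled out by these genes, so the counts are not separate support. Aurkb, the kinase of the chromosomal passenger complex, had the smallest p, with a log2 difference of -0.67 (limma, adjusted p = 0.214).

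**Figure D5:**
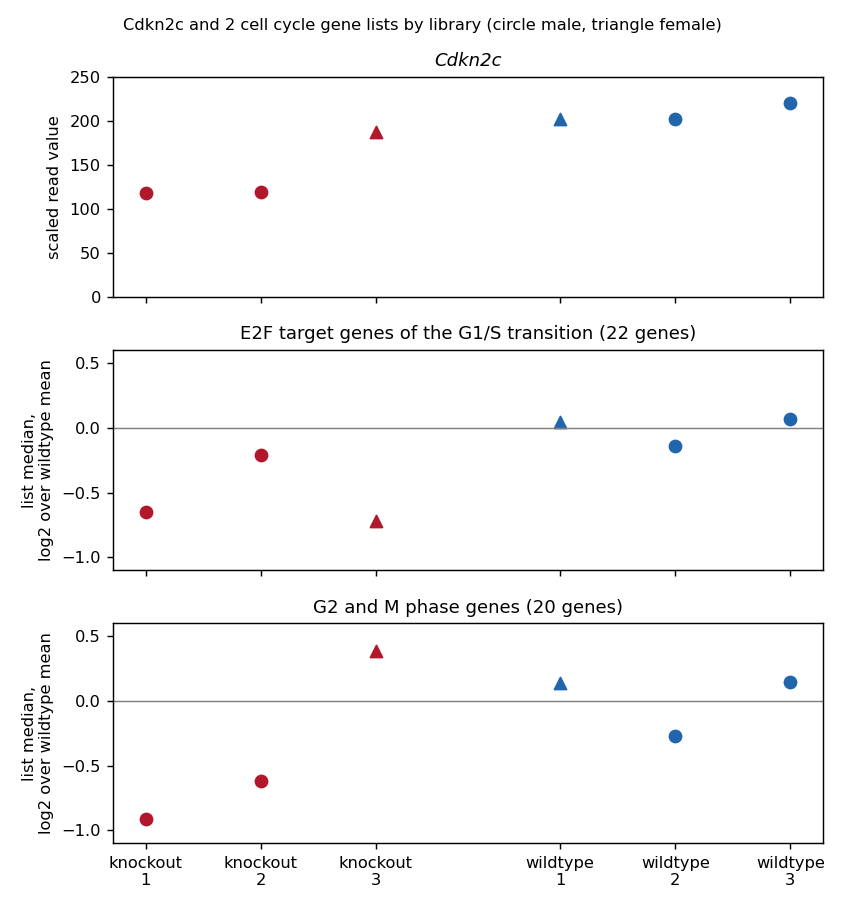
Top, scaled read values of Cdkn2c in each library; below, the median log2 value over the wildtype mean of 22 E2F targets and of 20 G2 and M phase genes. In knockout replicate 3 Cdkn2c stands at 188 and the G2 and M median at 0.39, while the E2F target median is -0.72.

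The p53 pathway, the best known inducer of Cdkn1a, was examined through its regulators and its other targets. Trp53, which encodes p53, held 371, 363 and 368 in knockout replicates 1, 2 and 3, against 426, 395 and 457 in wildtype replicates 1, 2 and 3, a log2 difference of -0.21 (limma, adjusted p = 0.206). Mdm2, both a target and the ligase that degrades p53, held 542, 545 and 492 in knockout replicates 1, 2 and 3, against 531, 507 and 518 in wildtype replicates 1, 2 and 3, at 0.02 (adjusted p = 0.911). These genes were named for their role after their values were seen. Of 12 tested regulators limma called 0 and voom 0, while 1 were higher and 2 lower before adjustment (p under 0.05). Hipk2, a kinase that phosphorylates p53, had the smallest p among them, at 129, 120 and 187 in knockout replicates 1, 2 and 3, against 49, 121 and 51 in wildtype replicates 1, 2 and 3 (log2 1.07, adjusted p = 0.206), with wildtype replicate 2 inside the knockout range. With knockout replicate 2 left out 1 of the regulators fell.

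Of 26 tested p53 targets other than p21, 1 rose and 0 fell, 20 had a log2 fold change above 0, and the median was 0.15. Of all tested genes 49.8% were above 0. At an unadjusted p under 0.05, 7 of the 26 were higher and 0 lower, against 8.54% and 7.86% of all tested genes. Leaving out knockout replicate 2 gave 3 targets that rose and 0 that fell, where 266 of all 14974 tested genes rose and 244 fell. Leaving out knockout replicate 3 gave 4 targets that rose and 1 that fell, where 338 of all tested genes rose and 389 fell. Leaving out any other library gave 0 targets. Zmat3, an RNA-binding p53 target, held 382, 472 and 369 in knockout replicates 1, 2 and 3, against 233, 277 and 282 in wildtype replicates 1, 2 and 3. On the log2 scale knockout minus wildtype was 0.62, standard error 0.11 (limma, adjusted p = 0.0494). Its libraries were in another order than those of Cdkn1a, with knockout replicate 2 the highest for Zmat3 and the lowest for Cdkn1a. The call of Zmat3 was lost in 11 of 19 alternatives, among them those without knockout replicate 1 (adjusted p = 0.134), without wildtype replicates 1, 2 and 3 (0.232, 0.13 and 0.198) with values scaled to a common total (0.0553) and by voom on the recovered reads (0.073).

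Other known regulators of the inhibitors were examined by list. Of 25 tested transcription factors and cofactors known to act on Cdkn1a, limma called 0 and voom 0, while 4 were higher and 1 lower before adjustment (p under 0.05). Tbx3, a T-box repressor known to act on Cdkn1a, had the smallest p, at 345, 320 and 298 in knockout replicates 1, 2 and 3, against 230, 267 and 256 in wildtype replicates 1, 2 and 3 (log2 0.35, adjusted p = 0.109). With knockout replicate 2 left out 3 of these regulators rose, and with knockout replicate 3 left out 2 did. Of all tested genes 266 and 338 rose in those settings. In the list for turnover of p27 and p21 proteins 0 of 13 changed by limma or voom, while 0 were higher and 2 lower before adjustment (p under 0.05). Skp2, the ubiquitin ligase subunit that recognises p27, held 50, 57 and 45 in knockout replicates 1, 2 and 3, against 78, 75 and 87 in wildtype replicates 1, 2 and 3 (log2 -0.65, adjusted p = 0.104). With knockout replicate 2 left out 1 gene of that list fell.

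Of 17 tested Polycomb genes, which silence the locus of Cdkn2a and Cdkn2b, 1 fell. This was Ezh2, the histone methyltransferase of Polycomb repressive complex 2 and itself a known E2F target. It held 247, 278 and 269 in knockout replicates 1, 2 and 3, against 391, 379 and 363 in wildtype replicates 1, 2 and 3. All knockout libraries were lower than all wildtype libraries by a wide gap, including the female library. The fitted log2 difference was -0.51, standard error 0.08 (limma, adjusted p = 0.028). Ezh2 was also called by voom on recovered reads and without knockout replicates 2 and 3. Ezh2 was not called without knockout replicate 1 (limma, adjusted p = 0.118) and without wildtype replicates 1, 2 and 3 (0.194, 0.105 and 0.156). Its call was also lost without trend and robust moderation (0.0915) and with the replicate block (0.115). Cdkn2b stood at 4 to 5 in the same knockout libraries.

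The imprinted neighbours of Cdkn1c on chromosome 7 gave no call. Of 11 tested genes limma and voom called 0, and 0 had an unadjusted p under 0.05, with a median log2 fold change of -0.04. The ion channel gene Trpm5 had the smallest p among them, at -0.62 (adjusted p = 0.319). Of 14 tested genes of senescence and its secretory phenotype, with which p21 and p16 are associated, 0 changed by limma or voom, while 3 were higher and 1 lower before adjustment (p under 0.05). Gdf15, a stress-induced cytokine of the TGF beta family, held 22, 33 and 37 in knockout replicates 1, 2 and 3, against 6, 6 and 14 in wildtype replicates 1, 2 and 3 (log2 1.78, adjusted p = 0.0648). With knockout replicate 2 or 3 left out 1 gene of that list rose. Of 17 other tested genes that restrain or time division, 0 changed by limma or voom, while 2 were higher and 3 lower before adjustment (p under 0.05). Mybl2, the Myb factor of G2 gene control, had the smallest p there, at 31, 49 and 32 in knockout replicates 1, 2 and 3, against 71, 66 and 72 in wildtype replicates 1, 2 and 3 (log2 -0.91, adjusted p = 0.0859). In that list 4 genes fell without knockout replicate 3 and 1 without knockout replicate 2, where 389 and 244 of all tested genes fell.

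The genes whose values ran most like those of Cdkn1a over the 6 libraries were sought among 9861 tested genes with a mean of at least 100. By Pearson correlation of log2(value + 1) they were Myo18b (0.999), Ptpn9 (0.998), Cacna2d1 (0.996), Xirp2 (0.995) and Gpc4 (0.995). Myo18b, an unconventional myosin of striated muscle, held 2727, 2662 and 2807 in knockout replicates 1, 2 and 3, against 2297, 2384 and 2324 in wildtype replicates 1, 2 and 3, a log2 difference of 0.23 (limma, adjusted p = 0.0985). Cacna2d1, an auxiliary calcium channel subunit, held 779, 755 and 840 in knockout replicates 1, 2 and 3, against 585, 634 and 592 in wildtype replicates 1, 2 and 3, and rose by 0.39 on the log2 scale (limma, adjusted p = 0.0452). Xirp2, an actin-binding protein of muscle, held 467, 372 and 615 in knockout replicates 1, 2 and 3, against 118, 172 and 162 in wildtype replicates 1, 2 and 3, and rose by 1.67 (limma, adjusted p = 0.0239). The calls of Cacna2d1 and Xirp2 were lost when knockout replicate 1 was left out (0.141 and 0.102) or any wildtype library was (limma, adjusted p between 0.0974 and 0.244). Both were also lost without intensity trend and robust moderation (limma, adjusted p = 0.127 and 0.078). Cacna2d1 was not called by voom on the recovered reads (adjusted p = 0.0707) or on the deposited values (0.0644). By limma it was not called in males alone (0.0863), with values scaled to a common total (0.0553) or with the replicate block (0.139). These genes share the libraries and the split between the groups with Cdkn1a, so the correlations are descriptions.

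Genes most like the other members were taken by the same measure. They were Atg14 (0.996) and Ppm1k (0.986) for Cdkn1b, Ryk (0.995) and Klhl6 (0.986) for Cdkn1c, Ulk1 (0.990) for Cdkn2c, and Gsto1 (0.997) and Cacng7 (0.994) for Cdkn2d. None of these 7 genes was called, with adjusted p from 0.213 to 0.708 by limma.

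Markers of the heart's cell types were summed in each library, since whole-heart RNA holds all of them. The summed value of 12 endothelial markers ran from 11303 to 11858 in knockout and from 10382 to 10671 in wildtype libraries, without overlap. That of 12 leukocyte markers ran from 1900 to 2323 in knockout and from 1687 to 1863 in wildtype libraries. Much of that difference was in Lyve1, at 559, 379 and 545 in knockout replicates 1, 2 and 3, against 265, 321 and 251 in wildtype replicates 1, 2 and 3. It was not called (limma, adjusted p = 0.0657). Of the 12 markers 2 were higher without overlap and 1 lower, against 11% and 10.9% of all tested genes. The summed value of 8 smooth muscle markers ran from 3592 to 3972 in knockout and from 4295 to 4553 in wildtype libraries. Cardiomyocyte and fibroblast sums overlapped, at 36386 to 41082 in knockout and 38278 to 41995 in wildtype libraries for cardiomyocytes, and at 14063 to 16825 in knockout and 14605 to 16856 in wildtype libraries for fibroblasts. Erythroid sums ran from 827 to 2213 in knockout and from 749 to 959 in wildtype libraries, and epicardial sums from 1407 to 2265 in knockout and from 1928 to 2121 in wildtype libraries. The range of the knockout libraries in these lists came from knockout replicate 3, with an erythroid sum of 2213 and an epicardial sum of 1407. Epicardial markers did not move together: of 10, 4 had a log2 fold change above 0 and 6 below 0. Krt8 held 93, 90 and 78 in knockout replicates 1, 2 and 3, against 35, 31 and 32 in wildtype replicates 1, 2 and 3 (limma, adjusted p = 0.0202). Its call was lost on leaving out knockout replicate 1 or any wildtype library, and with the replicate block. Neural sums ran from 500 to 545 in knockout and from 469 to 576 in wildtype libraries, and skeletal muscle sums from 1837 to 2105 in knockout and from 2076 to 2238 in wildtype libraries. Of 8 tested skeletal muscle markers 2 had a log2 fold change above 0 and 6 below 0. Mybpc2 held 197, 267 and 287 in knockout replicates 1, 2 and 3, against 92, 101 and 88 in wildtype replicates 1, 2 and 3 (limma, adjusted p = 0.0124). Its call was lost on leaving out any wildtype library, and without trend and robust moderation (0.0576). The 8 liver markers summed to 498 to 710 in knockout and 372 to 477 in wildtype libraries, without overlap. Most of that sum was Trf, which encodes transferrin, at 362, 310 and 315 in knockout replicates 1, 2 and 3, against 251, 276 and 251 in wildtype replicates 1, 2 and 3, and Ahsg, which encodes fetuin-A, at 313, 164 and 331 in knockout replicates 1, 2 and 3, against 94, 170 and 107 in wildtype replicates 1, 2 and 3. The defining hepatocyte gene Alb held 3, 0 and 6 in knockout, against 0, 1 and 35 in wildtype libraries. The part of these markers in the value of Cdkn1a was not tested.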

How the data were processed

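Strand-keeping mRNA libraries of 6 heart samples were read from a single end over 72 bases, per the labels. The submitters' processing notes name featureCounts 2.0.4, STAR 2.7.11a, DESeq2 1.36.0, Trimmomatic 0.39, Picard 3.0.0 and the build mm39, without their roles. The deposited values are a score: read numbers that the authors multiplied by a factor for each library and rounded. This was read from how often each whole number up to 400 occurs in a library. The factors were estimated from these frequencies as 0.9371, 1.0384 and 0.8524 in knockout replicates 1 to 3 and 1.0422, 0.9568 and 1.1798 in wildtype replicates 1 to 3, which gave the read totals. With a factor under 1, more than 1 read number can give the same value, so recovered reads are not unique there. This held for 11.25% and 30.54% of values up to 400 in knockout replicates 1 and 3, and for 6.60% in wildtype replicate 2.

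Testing took the genes that reached 10 in 3 or more libraries, in a single fit with limma 3.58.1 in R 4.3.3 on log2(value + 1), with intensity trend, robust moderation and no covariate. Fold changes on this scale understate those of low genes. Benjamini-Hochberg adjustment ran over all 14974 genes, with a threshold of 0.05. The scripts were tested on simulated data.

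The members, lists and tests were chosen with earlier results of these data known. Named genes were all members, Rbpms and Rbpms2, in each of 12 pathway lists up to 4 changed genes by smallest p or else the 1 with the smallest p, and the 5 genes most like Cdkn1a and 2 most like each other tested member. A gene that this rule names is not reported here. Exon lengths, the union of all annotated exons of a gene, came from GENCODE M21, matched by gene identifier for 96.5% of genes. Promoter sequences came from RefSeq. In the pairing check the deviations of libraries with the same number correlated at -0.169, -0.111 and -0.13. They gave no sign that the numbers pair samples. Sex and the outlying knockout replicate 3 also enter these deviations, so the check cannot exclude pairing by litter or batch.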

Additional observations from a re-analysis of the deposited data

Results flagged for a closer look

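Of 48 named genes examined, 5 had male libraries that moved one way without overlap and a female library that moved the other way. The share of all tested genes with this pattern was not counted, so these 5 are not read as an excess. Atg14, an autophagy gene, and Ppm1k, a mitochondrial phosphatase gene, were lower in male and higher in female knockout libraries. Both were named because their values ran most like those of Cdkn1b over the same libraries. Cdkn1b itself had a log2 difference of -0.15 in male and 0.07 in female libraries, so their pattern is not separate from that choice. Atg14 held 209 and 131 in male knockout libraries, against 219 and 211 in male wildtype libraries, a log2 difference of -0.38. It held 246 in the female knockout and 215 in the female wildtype library, a difference of 0.19. Ppm1k held 382 and 290 in male knockout libraries, against 405 and 400 in male wildtype libraries, a log2 difference of -0.27. It held 435 in the female knockout and 386 in the female wildtype library, a difference of 0.17.

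Mdm2, Ccnd2 and Cdk6 were higher in male and lower in female knockout libraries. For Cdk6, a kinase that INK4 proteins bind, male knockout libraries held 669 and 739, against 625 and 586 in male wildtype libraries, a log2 difference of 0.22. The female knockout library held 488 and the female wildtype library 616, a difference of -0.34. For the D-type cyclin gene Ccnd2, male knockout libraries held 1300 and 1454, against 1234 and 1156 in male wildtype libraries, a log2 difference of 0.20, and the female knockout library held 985 against 1190 in wildtype, a difference of -0.27. For Mdm2, male knockout libraries held 542 and 545, against 507 and 518 in male wildtype libraries, a log2 difference of 0.085, and the female knockout library held 492 against 531 in wildtype, a difference of -0.11. The difference between the sexes was not tested for these genes. Each genotype has 1 female library, which in the knockout is replicate 3.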

How the results depend on the processing

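The log2 fold change of Cdkn1a kept its sign in all 19 alternatives, within 1.01 to 1.33, and passed the threshold in 14 of them. It was 1.20 without trend and robust moderation, where the call was lost, and within 1.08 to 1.33 when 1 library was left out. Cdkn1c and Cdkn2d kept their sign and stayed uncalled in all 19, within 0.19 to 0.33 and 0.18 to 0.44. Cdkn1b turned to 0.021 without knockout replicate 2 and was within -0.15 to 0.02 when 1 library was left out. Cdkn2c kept its sign and was within -0.80 to -0.47 when 1 library was left out. It was called in 2 alternatives, without knockout replicate 3 and at -0.82 in male libraries only, and both leave out that library. The 4 ratios kept their direction in their 8 alternatives each. The cause of these changes was not tested.

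The number of genes changed, 141 as reported, was 218 with no filter, 78 with a mean of at least 50, 24 without trend and robust moderation, 72 by voom on the deposited values, 256 in males alone and 223 with sex as a term. It was 65 by voom on recovered reads, an alternative added after seeing the data, and from 0 to 727 when 1 library was left out. It was 0 without wildtype replicates 2 and 3, where 2176 and 1852 genes had an unadjusted p under 0.05 by limma. Voom gave 28 higher and 44 lower genes, and values scaled to a common total gave 42 higher and 58 lower. With the replicate number as a block 23 genes changed, Cdkn1a stayed called at a log2 fold change of 1.20 (adjusted p = 0.0358), and no other member was called. Depth limits Cdkn2b, with 4 to 6 reads per library. With a filter of at least 5 in 3 libraries its log2 fold change was -0.30 (limma, adjusted p = 0.763).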
